A study of Mus musculus with 15 samples.

Results

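Wnt signalling genes were followed across lines of NIH3T3 cells, immortalised mouse fibroblasts, given different Runx genes, which encode transcription factors that bind DNA with the partner Cbfb. The set held every gene named Wnt, frizzled (Fzd), secreted frizzled-related protein (Sfrp) or Dickkopf (Dkk), the frizzled co-receptors Lrp5 and Lrp6, the receptor kinases Ror1 and Ror2, the secreted inhibitor Wif1, the transducers Ctnnb1, Apc, Axin1, Axin2, Gsk3b, Nkd1 and Nkd2, and the factors Tcf7, Tcf7l1, Tcf7l2 and Lef1. It was chosen by name, with earlier results of these data known. Of 53 such symbols in the rule, 52 were measured among 18193 genes, each by the brightest of its probe sets. No probe set carried the name Tcf7 alone, so Tcf7 is not described. The 52 genes had 115 probe sets in all, and 35 of them had more than 1.

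All cells had been transduced with the retroviral vector pBabe-puro, grown to confluence over 7 days and kept in 0.2% ethanol, alone or with 4-hydroxytamoxifen (4-OHT, given as 0.1 mM), for the last 24 h before total RNA was taken. There were 2 arrays for each of the lines that expressed mouse Runx3, mouse Runx2 or mouse Runx1, and 1 array for human RUNX1. Cells with RUNX1-ER, a human RUNX1 construct that 4-OHT switches on, gave 2 arrays induced and 2 uninduced. The empty vector gave 2 arrays with 4-OHT and 2 without. The labels do not say whether each constitutive line had ethanol alone or 4-OHT, nor whether a line was a clone or a pool. Where a group had 2 arrays, their titles call them biological replicates. Whether such replicates were independent transductions or cultures of the same transduced line is left unstated. The p-values therefore measure the spread between these arrays, which may not include that between transductions. The series is titled as a study of how Runx proteins control adhesion and survival.

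Wnt proteins are secreted lipid-modified ligands that bind frizzled receptors together with Lrp5 or Lrp6, or with Ror kinases. Without a ligand, a complex of Axin, Apc and Gsk3b marks beta-catenin, the product of Ctnnb1, for destruction. When the pathway is on, beta-catenin enters the nucleus and joins Tcf and Lef factors on DNA, which otherwise hold target genes down with Tle co-repressors. Sfrp, Wif1 and Dkk proteins block the ligands or the co-receptors outside the cell.

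Values are log2 units after the authors' normalization, with array medians of 3.69 to 3.75 over all probe sets and upper quartiles of 5.48 to 5.71. Replicate arrays differed with an SD over genes of 0.162 to 0.220, and 11 of the 14 arrays with a replicate were closest to it. The brightest Runx1 probe set read 9.11 to 9.30 in Runx1 cells against 4.56 to 4.75 in vector cells. It read 4.69 on the human RUNX1 array, 4.63 to 4.71 in induced and 4.67 to 4.88 in uninduced RUNX1-ER cells. The labels of the human RUNX1 and RUNX1-ER cells are thus not checked by it. The brightest Runx3 probe set read 3.96 to 4.46 in Runx3 cells against 4.35 to 4.54 in vector cells. Whether it overlaps the inserted sequence is unknown here, so it does not check the label, and no probe set was named Runx2. All 8 fibroblast markers examined, among them Col1a1 and Vim, lay above the upper quartile on every array. They passed in 16 of 96 limma tests, where 3.29% of tests over all genes passed in the same comparisons. In Runx3 cells against vector Thy1 fell by 1.21 and Col3a1 by 0.50, and Col1a1 and Pdgfrb rose by 0.85 and 0.89. Of 5 epithelial markers Krt8 alone passed, in 5 of the list's 60 tests. It read 6.50 and 6.94 in Runx3 cells against 3.98 and 4.03 in vector cells (2.72, limma adjusted p = 1.67e-06). The log2 of the list's summed signal, Krt8 included, was 7.28 to 7.57 in Runx3 cells against 6.36 to 6.37 in vector cells. The median change of the list there was 0.03, where that of all genes was 0.0005. The part of these markers in the Runx3 results below was not tested. Markers of endothelium, blood, muscle and fat passed in 0 of 48, 0 of 36, 0 of 36 and 0 of 36 limma tests. Of these tests 2, 0, 3 and 7 had an unadjusted p under 0.05, where 13.4% of tests over all genes did.

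Signals are given by their place on each array, since the brightness of different probe sets cannot be compared as amounts of RNA. None of the 19 ligand genes lay above the upper quartile on all arrays. Wnt2, Wnt3, Wnt5b, Wnt8a and Wnt16 lay below the median on every array, and the mean levels of the 19 ran from 2.76 to 5.61. Of the 14 receptor genes, Fzd1, Fzd2 and Lrp6 lay above the upper quartile on every array, with means of 7.26, 8.54 and 6.98. None of the 9 secreted antagonists did, and 5 of them (Dkk1, Dkk2, Dkk4, Sfrp2 and Wif1) lay below the median on every array, as did the receptor Fzd6. Among the 7 transducers Ctnnb1, Gsk3b, Axin1 and Apc were above the upper quartile throughout, and Tcf7l1 was the Tcf factor that was.

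**Figure D1:**
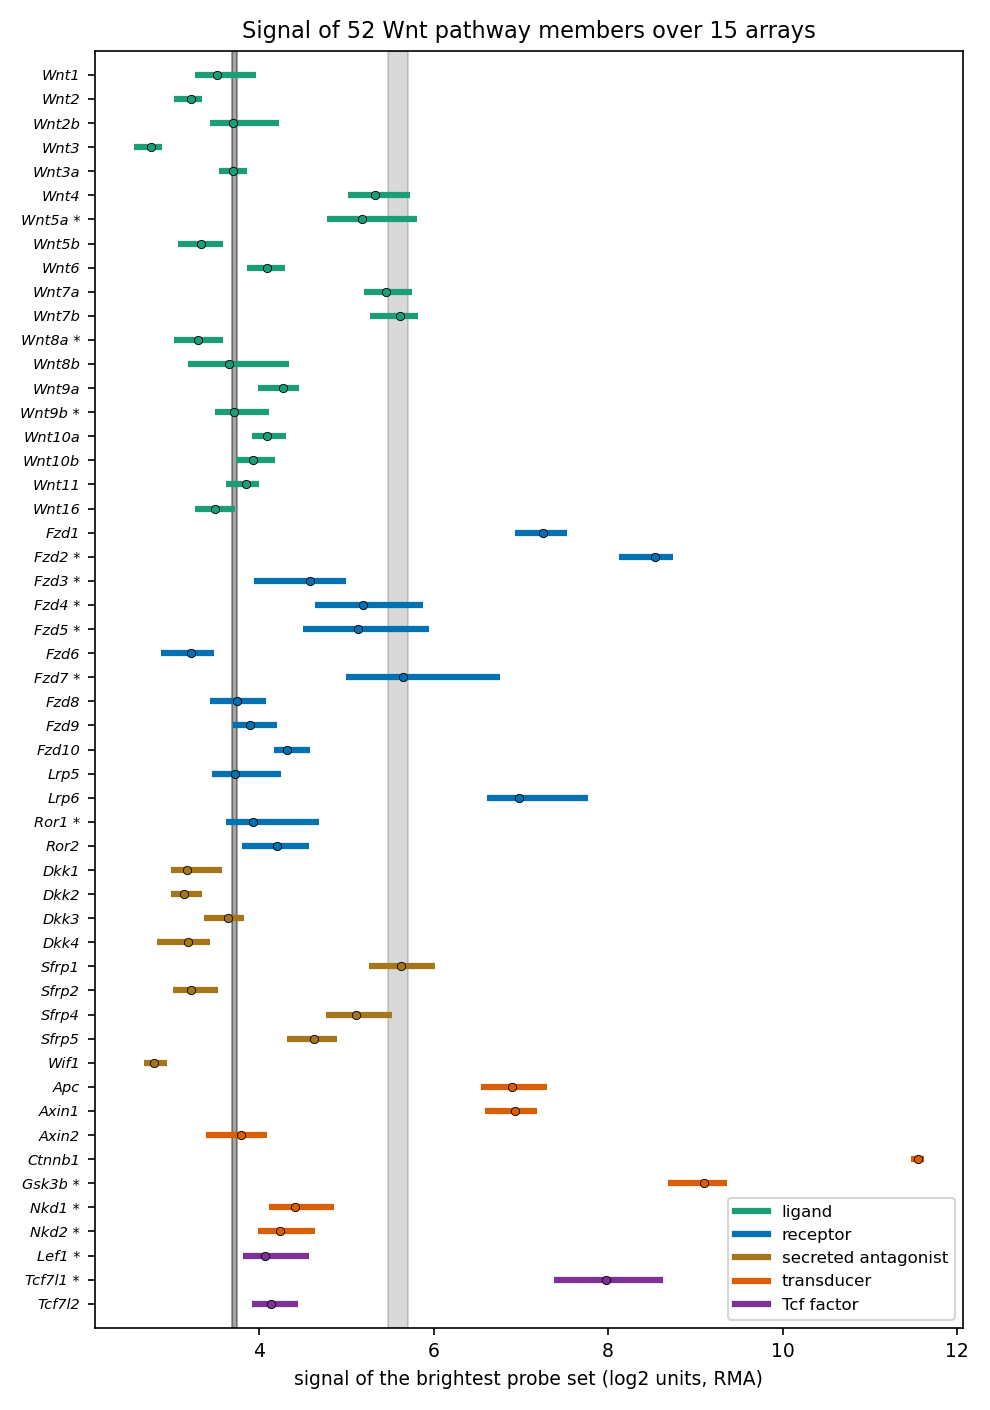
Signal of the brightest probe set of each of 52 genes (horizontal axis, log2 units after RMA; dot, mean over 15 arrays; bar, lowest to highest array), coloured by role. The dark band marks the range of the 15 array medians and the pale band that of the upper quartiles, and an asterisk marks the 14 genes past the threshold in at least 1 comparison. Ctnnb1 has the shortest bar, 0.149 log2 units, and Fzd7 the longest, 1.77.

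Across the 15 arrays the level of a member ranged over a median of 0.607 log2 units, and 9 members ranged over more than 1. Fzd7, a receptor, had the widest range at 1.77, and Ctnnb1 the narrowest at 0.149. Each comparison was tested with limma on all 18193 genes, with Benjamini-Hochberg adjustment over all of them and a threshold of 0.05. In Runx3 cells against vector cells 7 of 52 members passed (4 higher, 3 lower), which is 13.5% of members against 9.37% of all genes. Runx2 cells and Runx1 cells against vector cells had 1 member each, where 2.57% and 1.70% of all genes passed. The human RUNX1 line had 5 members, where 7.33% of all genes passed.

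On RUNX1-ER induction against uninduced cells 1 member passed, where 1.92% of all genes did. Induced RUNX1-ER cells against vector cells with 4-OHT had 5 members (3 higher, 2 lower) beside 4.16% of all genes. The induction beyond the effect of 4-OHT in vector cells had 1 member beside 0.605% of all genes. Uninduced RUNX1-ER cells against vector cells had 0 members in limma, beside 0.0440% of all genes, and 4-OHT in vector cells had 0 members and 0% of all genes. At an unadjusted p under 0.05 these last comparisons had 7 and 5 members, beside 1447 (7.95%) and 1225 (6.73%) of all genes. Between lines, 2 members passed for Runx3 against Runx2 (3.76% of all genes), 4 for Runx3 against Runx1 (6.52%) and 1 for Runx2 against Runx1 (1.50%).

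Medians over the members lay close to those of all genes. The median log2 change over the 52 members was 0.04 in Runx3 cells, where that of all genes was 0.0005, and 0.06 on induction, where that of all genes was 0.02. In all, 14 members passed somewhere: 2 Tcf factors, 6 receptors, 3 transducers, 3 ligands and 0 antagonists. For 5 of the 14 this was only in the line with 1 array. The share of all genes that passed somewhere is not given here, so the 14 cannot be set beside it. The lines and the uninduced cells share the vector arrays as controls, and the induced comparisons share the induced arrays, so their values are set side by side without counting them as separate support.

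**Figure D2:**
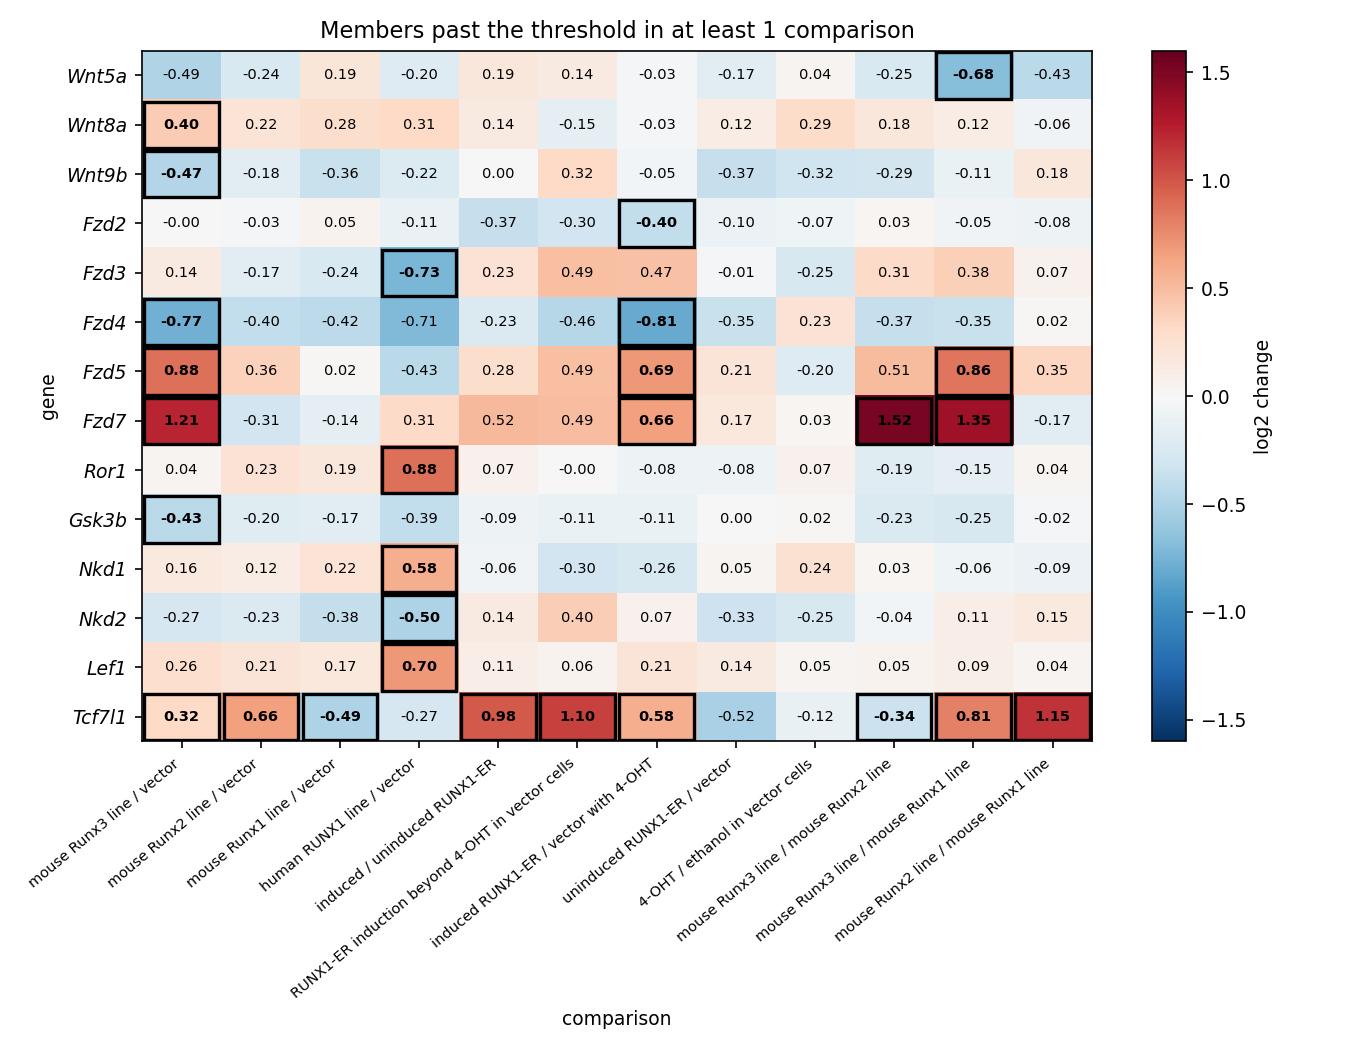
Log2 changes of the 14 members (rows) in the 12 comparisons (columns, first-named group over the second), with colour and printed value giving the change. A black frame marks a limma adjusted p under 0.05. Tcf7l1 is framed in 9 columns and has both signs, and Fzd7 is framed in 4, with changes of 0.66 to 1.52.

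Tcf7l1, which encodes a Tcf factor best known in mouse embryonic stem cells as a repressor of Wnt targets, changed in the most comparisons of any member. Its promoter is printed because no other member passed in as many comparisons. The window covers the 250 bases before the start on GRCm38.p6 (RefSeq), chr6:72789046-72789295 on the minus strand, and capitals mark a match to the Tcf motif.
Tcf7l1: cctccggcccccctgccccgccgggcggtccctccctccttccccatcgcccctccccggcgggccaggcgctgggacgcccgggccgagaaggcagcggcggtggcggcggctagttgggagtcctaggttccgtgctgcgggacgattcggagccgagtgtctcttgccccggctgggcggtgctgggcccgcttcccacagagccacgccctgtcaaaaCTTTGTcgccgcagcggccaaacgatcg
The match CTTTGT begins at base 223 of the window. The Runx motif was searched as TGTGGT or TGCGGT and the Tcf motif as CTTTGA or CTTTGT, both on either strand. The window of Tcf7l1 held 0 Runx matches and 1 Tcf match, and 73.6% of its bases were G or C, where the median window had 52.4%. Over all 32851 windows of that length 18.6% held a Runx match and 27.6% a Tcf match. Of 44 windows of 36 members 6 held a Runx match (13.6%) and 13 a Tcf match (29.5%), and these matches are letters and not evidence of binding.

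In the constitutive lines Tcf7l1 read 8.24 and 8.29 in Runx3 cells, 8.58 and 8.63 in Runx2 cells and 7.42 and 7.49 in Runx1 cells, against 7.96 and 7.93 in vector cells. Each line was apart from vector cells with no overlap, the Runx3 and Runx2 lines above them and the Runx1 line below. The log2 changes were 0.32 for Runx3 (SE 0.08, limma adjusted p = 0.0296), 0.66 for Runx2 (adjusted p = 6.63e-04) and −0.49 for Runx1 (adjusted p = 0.00763). The differences between lines passed as well. Tcf7l1 was 2.23-fold higher in Runx2 cells than in Runx1 cells (log2 1.15, SE 0.08, adjusted p = 1.47e-05) and 1.76-fold higher in Runx3 cells than in Runx1 cells (adjusted p = 6.42e-05). Between Runx3 and Runx2 cells it differed by −0.34 (adjusted p = 0.0424).

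Tcf7l1 rose on induction of RUNX1-ER. The gene read 8.39 and 8.43 in induced cells, against 7.38 and 7.48 in uninduced cells, with no overlap. The rise was 1.98-fold (log2 0.98, SE 0.08, limma adjusted p = 4.39e-05). In vector cells it read 7.77 and 7.89 with 4-OHT against 7.96 and 7.93 without, a change of −0.12 that did not pass (adjusted p = 0.855). The induction beyond that effect was 1.10 (SE 0.12, adjusted p = 7.71e-04), and against vector cells with 4-OHT the induced cells were higher by 0.58 (adjusted p = 0.00169). Uninduced cells stood lower than vector cells, by −0.52, and that difference missed the threshold (adjusted p = 0.0598). The induced arrays were above the uninduced and all vector arrays, and those of constitutive mouse Runx1 were below all vector arrays. The single human RUNX1 array read 7.67, a change of −0.27 (adjusted p = 0.139).

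A second, dimmer probe set of Tcf7l1 had the same sign in all 12 comparisons. It read 7.37 and 7.41 in Runx2 cells and 5.66 and 5.35 in Runx1 cells, against 6.23 and 6.29 in vector cells. Induced RUNX1-ER cells had 6.97 and 6.97 on it, against 5.67 and 5.69 in uninduced cells. Its changes were larger in 11 of the comparisons, among them 1.13 for Runx2, −0.75 for Runx1 and 1.29 on induction, and smaller in the human RUNX1 line, at −0.24 against −0.27. It passed in 8 of the 9 comparisons in which the brighter one did. The exception was Runx3 against vector, with 0.38 (adjusted p = 0.0989). The dimmer one was adjusted over all probe sets, and on that scale the brighter one missed for Runx3 against Runx2 (adjusted p = 0.0676).

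The Tcf7l1 calls of Runx2 against vector, of induction, of induction beyond 4-OHT and of Runx2 and Runx3 against Runx1 remained past the threshold without any single array. The Runx1 call was lost without vector replicate 1 (−0.48, adjusted p = 0.0840), vector replicate 2 (−0.51, 0.0632) or Runx1 replicate 1 (−0.46, 0.0803), and the calls of Runx3 against vector (0.30 to 0.34) and against Runx2 (−0.37 to −0.32) were lost without any 1 of their arrays. With the 4-OHT vector arrays as the control the 3 lines still passed, with changes of 0.44 for Runx3, 0.78 for Runx2 and −0.38 for Runx1.

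**Figure D3:**
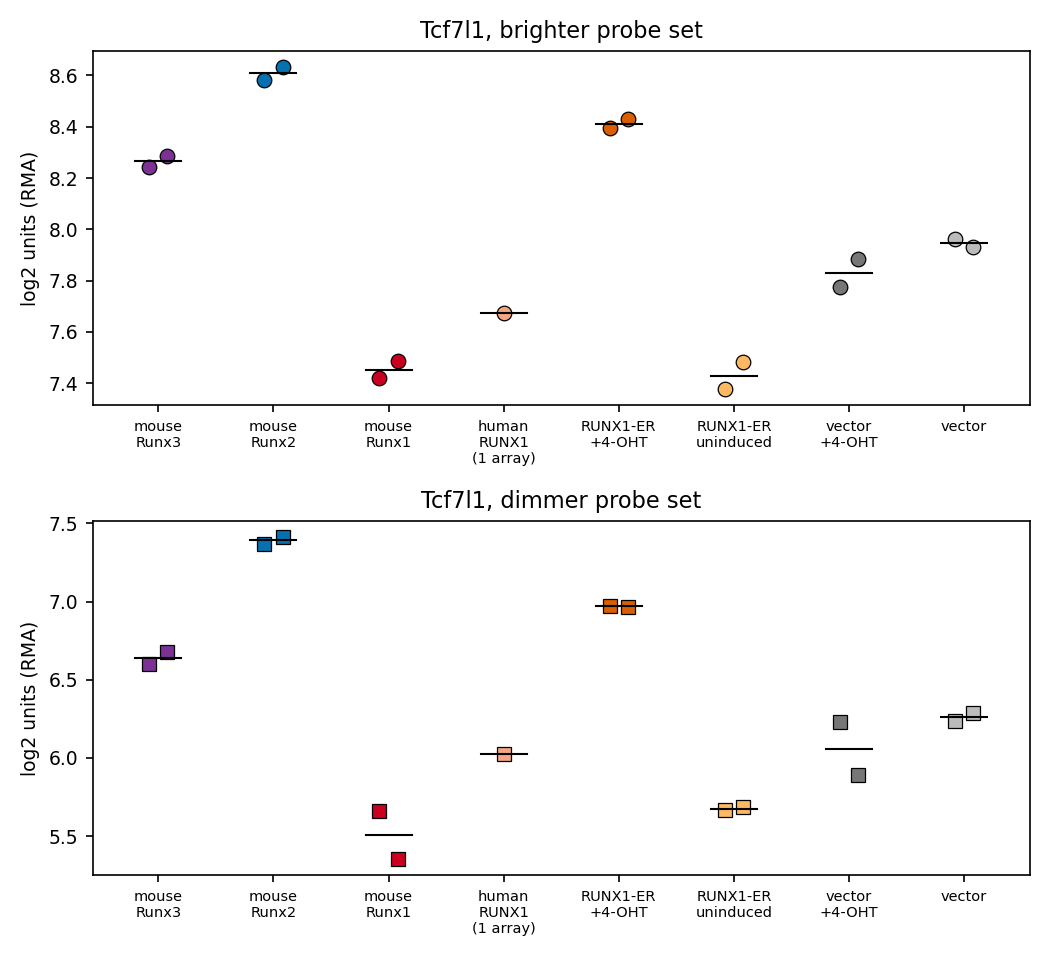
Tcf7l1 on its brighter (top) and dimmer (bottom) probe set, in log2 units after RMA on axes that do not start at 0. Each point is 1 array and each bar the mean of a group. On both probe sets the Runx2 arrays are the highest, and the Runx1 and uninduced RUNX1-ER arrays lie below the vector arrays.

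Frizzled receptors, which bind Wnt ligands through a cysteine-rich domain outside the cell, had 10 measured genes. In Runx3 cells against vector 3 of them passed the threshold, where 9.37% of all genes did. In induced RUNX1-ER cells against vector cells with 4-OHT 4 of them passed, where 4.16% of all genes did. None passed for induced against uninduced cells. Fzd7 carried the largest change of any member. Its promoter is shown for that reason, chr1:59481897-59482146 on the plus strand of GRCm38.p6 (RefSeq), with a Tcf match in capitals.
Fzd7: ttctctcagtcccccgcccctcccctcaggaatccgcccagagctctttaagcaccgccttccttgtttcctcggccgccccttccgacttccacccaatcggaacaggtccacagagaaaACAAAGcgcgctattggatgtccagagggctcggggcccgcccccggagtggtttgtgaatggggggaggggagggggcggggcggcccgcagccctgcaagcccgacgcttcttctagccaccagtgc
That match, ACAAAG, starts at base 122 of the window, and there were 0 Runx matches. Fzd7 read 6.76 and 6.49 in Runx3 cells, 4.99 and 5.22 in Runx2 cells and 5.43 and 5.12 in Runx1 cells, against 5.43 and 5.40 in vector cells. Both Runx3 arrays stood above all arrays of the other groups, the human RUNX1 array reading 5.72. The rise was 2.32-fold (log2 1.21, SE 0.13, limma adjusted p = 3.57e-05). Against Runx2 cells Fzd7 was higher in Runx3 cells by 1.52 (adjusted p = 3.81e-05) and against Runx1 cells by 1.35 (adjusted p = 2.71e-05), and none of these 3 calls was lost under any alternative. With the mean over both Fzd7 probe sets the 3 changes were 0.57, 0.79 and 0.66.

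In the inducible system Fzd7 read 6.09 and 6.11 in induced cells and 5.49 and 5.67 in uninduced cells, against 5.48 and 5.40 in vector cells with 4-OHT. The induced arrays were above all the others of this system. Against vector cells with 4-OHT the rise was 0.66 (SE 0.13, adjusted p = 0.0102), and against uninduced cells the difference was 0.52 and missed the threshold (adjusted p = 0.0603). The induction beyond 4-OHT was 0.49 (adjusted p = 0.330). The call against vector cells with 4-OHT was lost without induced replicate 1 (0.67, adjusted p = 0.0699), induced replicate 2 (0.65, 0.0771) or 4-OHT vector replicate 2 (0.62, 0.0789). Fzd7 results rest on 1 probe set: the other one, with a mean of 3.88 near the array median, changed by −0.07 in Runx3 cells and −0.03 in induced cells. With the mean over probe sets the induced call was lost (0.31, adjusted p = 0.112).

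Fzd5, another frizzled, read 5.67 and 5.94 in Runx3 cells and 4.93 and 4.97 in Runx1 cells, against 4.73 and 5.13 in vector cells. The Runx3 arrays did not overlap those of vector or Runx1 cells. Fzd5 rose by 0.88 against vector (SE 0.18, adjusted p = 0.00667) and by 0.86 against Runx1 cells (adjusted p = 0.0105). In induced RUNX1-ER cells it read 5.68 and 5.16, against 4.89 and 4.57 in vector cells with 4-OHT, and the rise of 0.69 just passed (adjusted p = 0.0484). Uninduced cells read 5.13 and 5.14, Runx2 cells 5.18 and 5.41 and the human RUNX1 array 4.50. The other Fzd5 probe set, at a mean of 3.41, changed by 0.01 in Runx3 cells and 0.21 in induced cells. With the replicate block the induced call was lost (0.69, adjusted p = 0.0639).

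Fzd4, the frizzled receptor also used by the non-Wnt ligand norrin, moved the other way. It read 4.90 and 4.63 in Runx3 cells, 4.98 and 5.30 in Runx2 cells and 5.25 and 5.00 in Runx1 cells, against 5.40 and 5.68 in vector cells. All 6 arrays of the mouse lines were below both vector arrays, and the Runx3 change passed, at −0.77 (SE 0.17, adjusted p = 0.0110). Induced RUNX1-ER cells read 5.19 and 4.73, against 5.88 and 5.66 in vector cells with 4-OHT, a fall to 0.571-fold (log2 −0.81, adjusted p = 0.0179). Uninduced cells, at 5.14 and 5.24, overlapped the induced cells, and the human RUNX1 array read 4.83. The other Fzd4 probe sets did not pass, with −0.27 and −0.01 in Runx3 cells and −0.04 and −0.32 in induced cells. With the mean over probe sets both calls were lost (−0.35, adjusted p = 0.0533 in Runx3 cells and −0.39, adjusted p = 0.0556 in induced cells).

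Fzd2, at the bright end of the receptors, read 8.20 and 8.12 in induced RUNX1-ER cells, 8.48 and 8.58 in uninduced cells and 8.54 and 8.59 in vector cells with 4-OHT. The induced arrays were the lowest of all 15. The fall against vector cells with 4-OHT was −0.40 (SE 0.09, adjusted p = 0.0224), and that against uninduced cells was −0.37 and missed the threshold (adjusted p = 0.0548). A second Fzd2 probe set passed too, with −0.43, and the remaining one changed by −0.23. In Runx3, Runx2 and Runx1 cells Fzd2 read between 8.54 and 8.75, against 8.65 and 8.60 in vector cells.

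Single arrays decided several frizzled calls. In Runx3 cells Fzd5 was no longer past the threshold when vector replicate 1 (0.67, adjusted p = 0.0936) or Runx3 replicate 2 (0.74, 0.0771) was left out, and Fzd4 there without vector replicate 2 (−0.63, 0.122) or Runx3 replicate 2 (−0.64, 0.114). In induced cells Fzd5 missed it without induced replicate 1 (0.43, 0.385) or 4-OHT vector replicate 2 (0.53, 0.275), Fzd4 without induced replicate 2 (−0.58, 0.173) or 4-OHT vector replicate 1 (−0.70, 0.0923), and Fzd2 without any 1 of the 4 arrays (−0.44 to −0.36). The difference of Fzd5 between Runx3 and Runx1 cells was lost without Runx3 replicate 2 (0.72, 0.112), Runx1 replicate 1 (0.84, 0.0754) or Runx1 replicate 2 (0.88, 0.0608).

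**Figure D4:**
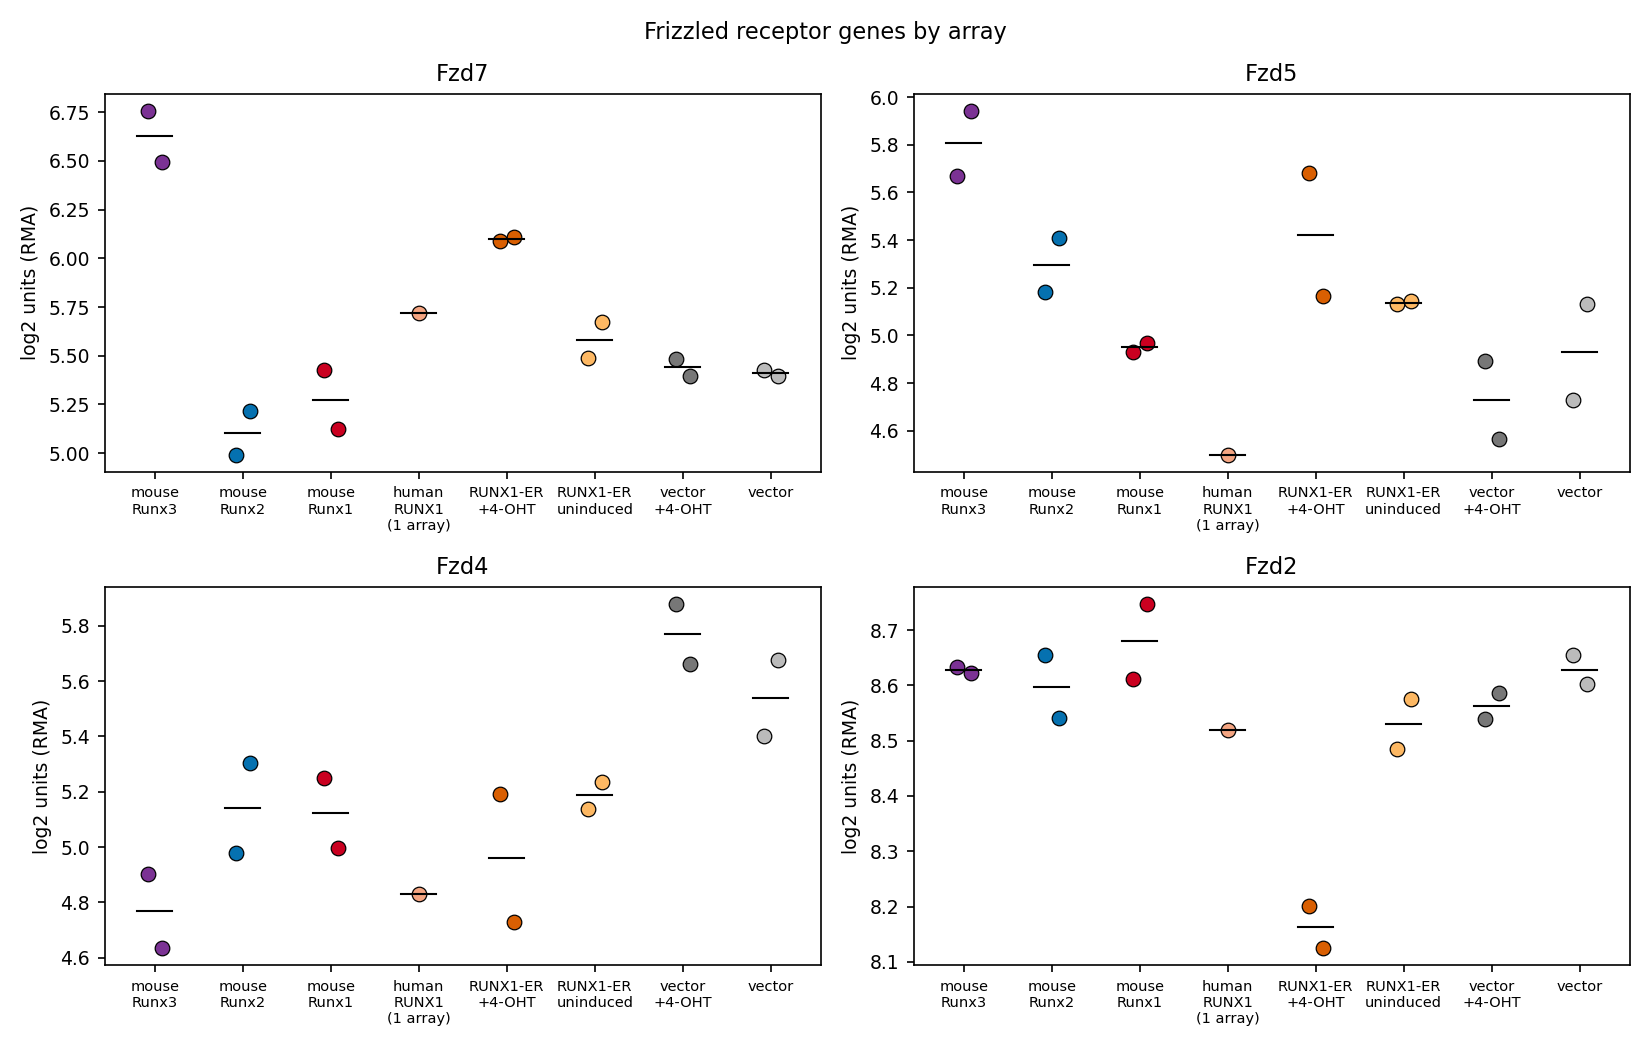
Fzd7, Fzd5, Fzd4 and Fzd2 by array, in log2 units after RMA on axes that do not start at 0 and differ between panels. Points are arrays and bars group means. The Runx3 arrays of Fzd7 lie at 6.49 and 6.76 above all others, and the induced RUNX1-ER arrays of Fzd2 at 8.12 and 8.20 below all others.

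Lrp6 and Lrp5, the single-pass co-receptors that pair with frizzleds in beta-catenin signalling, passed in none of the 12 comparisons. Lrp6 read 6.61 and 6.93 in Runx3 cells, 6.71 and 6.79 in Runx2 cells and 6.77 and 6.78 in Runx1 cells, against 7.27 and 6.98 in vector cells. Every array of the mouse lines was below both vector arrays, with changes of −0.36, −0.37 and −0.35 in the same order and adjusted p-values of 0.195, 0.301 and 0.440. In the inducible system Lrp6 read 7.09 and 7.06 in induced cells, against 7.30 and 7.77 in uninduced cells, which were the highest of all arrays, and the induction change was −0.46 (95% interval −0.78 to −0.14, adjusted p = 0.198). Lrp5 read 3.77 and 4.25 in Runx3 cells against 3.61 and 3.48 in vector cells, a difference of 0.46 (adjusted p = 0.0749). Fzd1, Fzd6, Fzd8, Fzd9, Fzd10 and Ror2 were not past the threshold anywhere either.

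Among the ligands, changes were few, small and mostly at the dim end. Wnt5a, a ligand known mainly for beta-catenin-independent signalling through Ror receptors, read 4.80 and 4.77 in Runx3 cells, 4.94 and 5.13 in Runx2 cells and 5.81 and 5.13 in Runx1 cells, against 5.30 and 5.24 in vector cells. The other arrays lay between 5.07 and 5.53. The Runx3 arrays were the lowest of all, and the Runx1 arrays were far apart from each other. The difference of −0.68 between Runx3 and Runx1 cells passed (SE 0.18, adjusted p = 0.0471) and was −0.34 without Runx1 replicate 1 (adjusted p = 0.360). It also missed the threshold without Runx3 replicate 1 (−0.69, 0.146) or Runx3 replicate 2 (−0.66, 0.193). Against vector cells Runx3 differed by −0.49 (adjusted p = 0.146), and a second Wnt5a probe set passed for Runx3 against Runx1 cells, with −0.58. That probe set was adjusted over all probe sets, and on that scale the brightest one missed the threshold (adjusted p = 0.0583).

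Wnt8a and Wnt9b passed in Runx3 cells against vector, both at signals near or below the array median. Wnt8a read 3.36 and 3.59 in Runx3 cells against 3.03 and 3.11 in vector cells, a rise of 0.40 (adjusted p = 0.0275), and between 3.12 and 3.45 on the other arrays. Wnt9b read 3.57 and 3.49 in Runx3 cells against 3.89 and 4.11 in vector cells, a fall of −0.47 (adjusted p = 0.0180), and between 3.50 and 3.87 elsewhere. The vector arrays without 4-OHT were thus the lowest of all for Wnt8a and the highest of all for Wnt9b. With the 4-OHT vector arrays as the control neither passed, with 0.11 for Wnt8a (adjusted p = 0.599) and −0.15 for Wnt9b (adjusted p = 0.499). The other 16 ligand genes passed in no comparison.

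Ctnnb1, which encodes beta-catenin, passed nowhere and read between 11.47 and 11.62 on all 15 arrays. Its changes ran from −0.02 to 0.09 over the 12 comparisons, and for Runx3 cells against vector the 95% interval was −0.09 to 0.26. Axin2, a feedback inhibitor of the pathway and a widely used readout of beta-catenin activity, read 3.99 and 3.39 in Runx3 cells, 3.93 and 3.94 in Runx2 cells and 3.97 and 3.46 in Runx1 cells, against 3.67 and 3.86 in vector cells. The Runx3 and Runx1 replicates spanned the vector arrays, the Runx2 arrays lay above them, and Axin2 passed nowhere. On induction it changed by −0.05, with a 95% interval of −0.45 to 0.35. The probe set lies close to the array median.

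Gsk3b, the kinase that phosphorylates beta-catenin in the destruction complex, was the transducer that passed in a line with 2 arrays. It read 8.95 and 8.69 in Runx3 cells, 8.95 and 9.14 in Runx2 cells and 9.13 and 9.01 in Runx1 cells, against 9.29 and 9.20 in vector cells. Arrays of the inducible system and the vector arrays with 4-OHT lay between 9.13 and 9.36, and the human RUNX1 array at 8.85. The Runx3 arrays were below the vector arrays, and the fall of −0.43 passed (SE 0.12, adjusted p = 0.0408). It was lost without vector replicate 1 (−0.38, 0.224), vector replicate 2 (−0.47, 0.119) or Runx3 replicate 2 (−0.30, 0.315). None of 5 dimmer Gsk3b probe sets passed, with changes of −0.45 to 0.09, and the call was lost with the mean over probe sets (−0.19, adjusted p = 0.260). Axin1 and Apc passed nowhere.

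In the human RUNX1 line 5 members passed, each from 1 array that was assumed to vary like the other groups. Lef1, the Tcf relative that activates Wnt targets in hair follicles and lymphocytes, read 4.58 there against 3.86 and 3.90 in vector cells, and from 3.81 to 4.24 elsewhere. The rise was 0.70 (SE 0.13, adjusted p = 0.00597) and held without either vector array. Ror1, an orphan-type receptor kinase that binds Wnt5a, read 4.68 against 3.80 and 3.81 in vector cells, with 3.62 to 4.14 elsewhere, a rise of 0.88 (adjusted p = 0.00678). That array was above all others for both genes.

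Nkd1 and Nkd2, which encode Dishevelled-binding feedback inhibitors of the pathway, went in opposite directions on that array. Nkd1 read 4.85 against 4.12 and 4.42 in vector cells (0.58, adjusted p = 0.0334) and from 4.21 to 4.65 on the other arrays. Nkd2 read 3.99 against 4.34 and 4.64 in vector cells (−0.50, adjusted p = 0.0470) and from 4.07 to 4.38 elsewhere. Fzd3, a frizzled of axon guidance and planar polarity, read 3.95 against 4.73 and 4.62 in vector cells (−0.73, adjusted p = 0.0215) and from 4.21 to 5.00 elsewhere. With the 4-OHT vector arrays as the control Lef1 and Ror1 still passed, with 0.65 and 0.80, and Nkd1, Nkd2 and Fzd3 did not, with 0.34, −0.24 and −0.48. With the mean over probe sets Lef1 passed (0.46, adjusted p = 0.0208), and Ror1 (0.29, 0.0658), Nkd1 (0.18, 0.313), Nkd2 (−0.19, 0.432) and Fzd3 (−0.13, 0.498) did not. No other probe set of these 5 genes passed, and Nkd2 was also lost with the replicate block (−0.46, adjusted p = 0.0703). Nkd1 also missed the threshold without vector replicate 1 (0.43, 0.198), Nkd2 without vector replicate 2 (−0.35, 0.210), and Fzd3 without vector replicate 1 (−0.68, 0.111) or vector replicate 2 (−0.78, 0.0546).

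Lef1 and Tcf7l2, which encode the other measured factors of the Tcf family, passed in none of the comparisons with 2 arrays a group. Lef1 changed by 0.26 in Runx3 cells, 0.21 in Runx2 cells and 0.17 in Runx1 cells, and none of these passed. On induction Lef1 changed by 0.11 (95% interval −0.12 to 0.33), where Tcf7l1 rose by 0.98. Tcf7l2 read 4.34 and 4.22 in induced RUNX1-ER cells against 3.95 and 3.95 in uninduced cells. These arrays did not overlap, and the difference of 0.33 (95% interval 0.11 to 0.55) missed the threshold after adjustment (adjusted p = 0.176). Another Tcf7l2 probe set, with a mean of 4.04 against 4.13, read 4.86 and 4.61 in induced cells against 4.00 and 3.81 in uninduced cells, a change of 0.83 (adjusted p = 0.0788). The remaining ones changed by 0.36 and 0.09.

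The secreted antagonists, which are the 4 measured Sfrp genes, 4 Dkk genes and Wif1, passed in 0 of 108 limma tests, with 11 (10.2%) at an unadjusted p under 0.05. Over all genes 3.29% of tests passed in the same comparisons, and 13.4% had an unadjusted p under 0.05. Their changes in comparisons with 2 arrays a group ran from −0.42 to 0.37. Sfrp1 was one of the brighter ones, with a mean of 5.62, and Wif1 one of the dimmer, with 2.80.

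Beyond the members, 4 lists of other pathway genes were counted. Of 24 measured targets of beta-catenin and Tcf, 2 were higher and 6 lower in Runx3 cells against vector cells, 0 and 3 in Runx2 cells, and 1 and 2 in Runx1 cells. On induction of RUNX1-ER 2 were higher and 3 lower, and against vector cells with 4-OHT 3 and 4. These are 33.3%, 12.5%, 12.5%, 20.8% and 29.2% of the list, beside 9.37%, 2.57%, 1.70%, 1.92% and 4.16% of all genes. The median change of the list was −0.10 in Runx3 cells, where that of all genes was 0.0005, and 0.05 on induction, where that of all genes was 0.02. The list was chosen with results of these arrays known.

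Id2, which encodes an inhibitor of basic helix-loop-helix factors, had the largest change on the list in each constitutive line. It read 6.41 and 6.35 in Runx3 cells, 6.86 and 6.84 in Runx2 cells, 7.45 and 7.37 in Runx1 cells and 6.81 on the human RUNX1 array, against 9.11 and 9.07 in vector cells. The log2 changes were −2.71 (adjusted p = 1.29e-08), −2.24 (1.62e-07), −1.68 (3.25e-06) and −2.28 (6.95e-07), with no overlap. In the inducible system it read 7.65 and 7.50 in induced cells and 8.43 and 8.45 in uninduced cells, against 9.07 and 8.76 in vector cells with 4-OHT, and the induction change was −0.87 (adjusted p = 6.54e-04). A second Id2 probe set passed in the same 4 lines and changed by −0.67 on induction without passing (adjusted p = 0.0525).

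Ccn4 (Wisp1), a matricellular protein gene first found as Wnt-induced, was a target that rose in Runx3 cells and on induction of RUNX1-ER. It read 7.33 and 7.60 in Runx3 cells, 5.88 and 5.94 in Runx2 cells and 5.77 and 5.91 in Runx1 cells, against 5.69 and 5.82 in vector cells. In the inducible system it read 7.24 and 7.47 in induced cells and 5.81 and 5.92 in uninduced cells, against 5.94 and 5.47 in vector cells with 4-OHT. The Runx3 and induced arrays stood well above all others. The log2 changes were 1.71 in Runx3 cells (adjusted p = 6.96e-06), 1.49 on induction (adjusted p = 1.15e-04) and 1.54 beyond the effect of 4-OHT (adjusted p = 0.00346), and a second Ccn4 probe set passed with 1.83, 1.42 and 1.72.

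Ccnd1, the cyclin D1 gene and a textbook target of the pathway, rose in induced RUNX1-ER cells. It read 9.18 and 9.07 in induced cells and 8.25 and 8.004 in uninduced cells, against 8.06 and 7.99 in vector cells with 4-OHT. In Runx3 cells it read 8.18 and 8.08 against 8.16 and 8.08 in vector cells, a change of 0.01. The induction change was 1.00 (adjusted p = 1.86e-04), and 1.09 beyond the effect of 4-OHT (adjusted p = 0.00337). Of the AP-1 genes on the list, Fosl1 fell by 1.42, 0.94 and 0.54 log2 units in Runx3, Runx2 and Runx1 cells against vector cells. Jun changed by −1.59 in Runx3 cells (adjusted p = 3.79e-05) and by −1.12 in Runx2 cells (adjusted p = 0.00208). On induction Jun read 7.42 and 7.38 in induced cells against 8.12 and 8.14 in uninduced cells, a change of −0.73 (adjusted p = 0.0444). A second Jun probe set changed there by −0.70 without passing (limma adjusted p = 0.15). With adjustment over all probe sets the brightest one missed the threshold too (adjusted p = 0.0544). Myc, another target of the list, was higher by 0.53 in Runx1 cells (adjusted p = 0.0345) and by 0.85 in Runx3 cells (adjusted p = 3.45e-04). In the human RUNX1 line Fgf18 and Cd44 changed by 0.67 and −0.56 (adjusted p = 0.0270 and 0.0258).

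Apcdd1 and Igfbp4, whose products bind Wnt co-receptors outside the cell and inhibit the pathway, differed between the lines, and Apcdd1 is on the target list as well. Apcdd1 read 7.83 and 7.77 in Runx3 cells, 8.36 and 8.47 in Runx2 cells and 8.89 and 8.81 in Runx1 cells, against 8.75 and 8.75 in vector cells. The Runx3 arrays were the lowest of all, and the change of −0.95 passed (adjusted p = 1.40e-05). On induction Apcdd1 changed by −0.40 (adjusted p = 0.0401) and Igfbp4 by −0.46 (adjusted p = 0.0398). No other probe set of either gene passed on induction. With adjustment over all probe sets the brightest ones missed the threshold too (adjusted p = 0.0591 and 0.0551). The induction beyond 4-OHT did not pass for Apcdd1 (−0.45, adjusted p = 0.174) or Igfbp4 (−0.29, adjusted p = 0.506). In Runx3 cells against vector cells, 3 of 5 other Apcdd1 probe sets fell as well. Those at means of 6.73 and 3.13 changed by 0.01 and 0.05. Igfbp4 read 9.81 and 9.85 in Runx3 cells, 8.82 and 8.64 in Runx2 cells and 9.61 and 9.51 in Runx1 cells, against 9.52 and 9.46 in vector cells. The Runx2 arrays were the lowest of all, with a change of −0.76 against vector cells (adjusted p = 9.84e-04), and Igfbp4 was higher by 1.10 in Runx3 cells than in Runx2 cells (adjusted p = 8.67e-05). Of 17 measured genes of secretion and extracellular modulation, 1 was higher and 1 lower in Runx3 cells against vector cells. That is 11.8% of the list, beside 9.37% of all genes. In Runx2 cells 0 were higher and 1 lower, 5.88% of the list beside 2.57% of all genes. The higher one in Runx3 cells was Porcn, the acyltransferase that Wnt secretion needs (0.47, adjusted p = 0.0191).

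**Figure D5:**
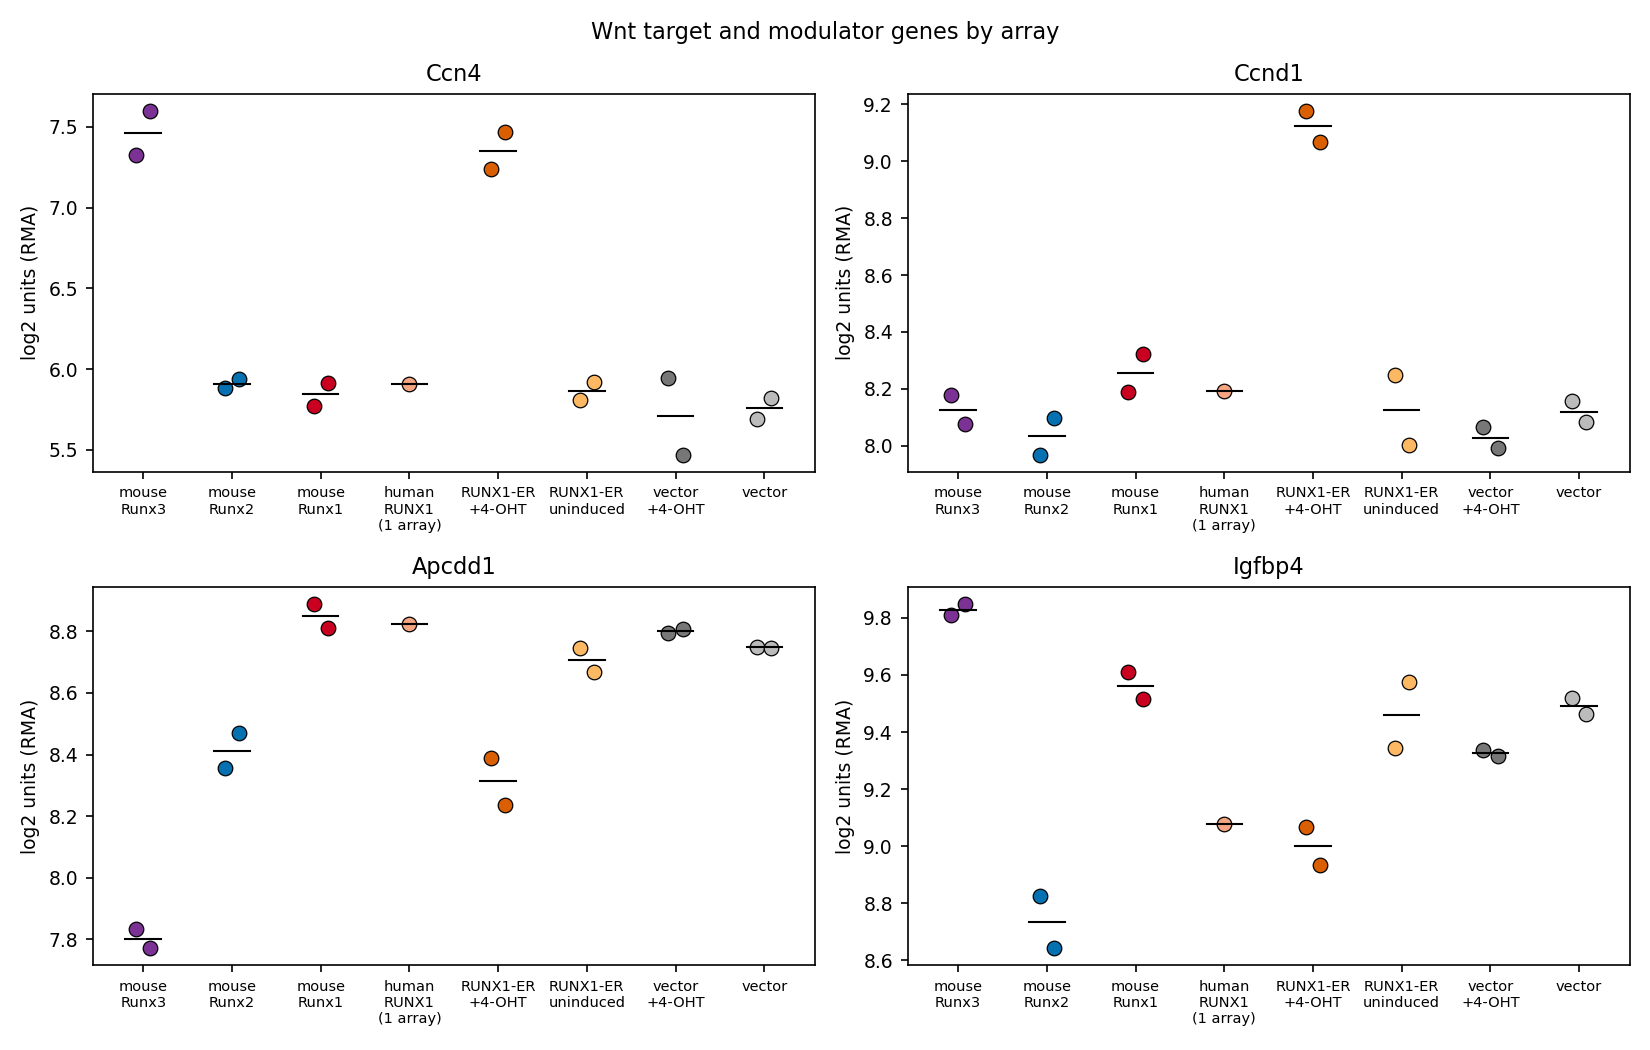
Ccn4, Ccnd1, Apcdd1 and Igfbp4 by array, in log2 units after RMA on axes that do not start at 0 and differ between panels. Points are arrays and bars group means. Ccn4 is between 7.24 and 7.60 on the Runx3 and induced RUNX1-ER arrays, and Ccnd1 is above 9 on the induced arrays alone.

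Of 28 measured genes of the cytoplasm and nucleus, 0 were higher and 2 lower in Runx3 cells against vector cells, Dvl2 (−0.52, adjusted p = 0.0250) and Tle5 (−0.36, adjusted p = 0.0231), which is 7.14% of the list beside 9.37% of all genes. In induced RUNX1-ER cells against vector cells with 4-OHT 2 were higher and 1 lower, 10.7% beside 4.16% of all genes. The higher ones were the co-repressor genes Tle2, at 5.78 and 5.64 against 4.64 and 4.67 (1.06, adjusted p = 0.0157), and Tle3, at 7.44 and 7.29 against 6.71 and 6.87 (0.57, adjusted p = 0.0406). The lower one was Dvl3, at 3.43 and 3.72 against 3.94 and 4.25 (−0.52, adjusted p = 0.0355). Uninduced cells read 4.60 and 5.25 for Tle2, 6.84 and 7.18 for Tle3, and 3.53 and 3.41 for Dvl3. None of these genes passed for induced against uninduced cells, with 0.78 for Tle2 (adjusted p = 0.109) and 0.35 for Tle3 (adjusted p = 0.349). Beyond the effect of 4-OHT Tle2 and Tle3 did not pass either (adjusted p = 0.169 and 0.478). Bcl9l, a beta-catenin co-activator gene, read 5.92 and 5.93 in induced cells against 5.59 and 5.43 in uninduced cells (0.42, adjusted p = 0.0218). Dimmer probe sets did not pass, with −0.03 for Dvl2, and with 0.04 and, opposite to the rise, −0.19 for Bcl9l. The dimmer Bcl9 probe set changed by 0.03 on the human RUNX1 array. In the human RUNX1 line Bcl9 passed, with −0.62 (adjusted p = 0.0120). Of 17 co-receptor, receptor-turnover and planar polarity genes none passed in the comparisons with 2 arrays a group (0 of 187 limma tests, 16 at an unadjusted p under 0.05, where 2.92% of all genes' tests passed and 12.7% had an unadjusted p under 0.05), and Daam2 did in the human RUNX1 line (0.44, adjusted p = 0.0492).

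Krt8, a keratin gene of simple epithelia, was highest in Runx3 cells. It also passed in Runx2 cells against vector cells (0.97, limma adjusted p = 0.0180). In induced RUNX1-ER cells against vector cells with 4-OHT it changed by 0.32 and did not pass (adjusted p = 0.469). It read 6.50 and 6.94 in Runx3 cells, 4.94 and 5.00 in Runx2 cells, 4.60 and 4.18 in Runx1 cells and 5.61 in human RUNX1 cells, against 3.98 and 4.03 in vector cells. The human RUNX1 rise was 1.61, and the other Krt8 probe sets changed there by 0.12 and 0.30. Those other probe sets rose by 0.65 and 1.13 in Runx2 cells and by 2.36 and 2.36 in Runx3 cells. Of the 5 epithelial markers examined 1 was higher in Runx3 cells, namely Krt8 (2.72, adjusted p = 1.67e-06), and none of the 5 lay above the upper quartile on all arrays. Their median change in Runx3 cells was 0.03, where that of all genes was 0.0005. The log2 of the summed signal of the 5 markers, Krt8 included, ran from 7.28 to 7.57 in Runx3 cells and from 6.61 to 6.68 in Runx2 cells, and was 6.84 in the human RUNX1 line. It ran from 6.41 to 6.46 in Runx1 cells, from 6.64 to 6.69 in induced and from 6.31 to 6.36 in uninduced RUNX1-ER cells, against 6.38 to 6.58 in vector cells with 4-OHT and 6.36 to 6.37 in vector cells. The part of these markers in the changes of Fzd7, Fzd5, Fzd4 and the other members in Runx3 cells was not tested. On bulk RNA a lower level in every cell and fewer cells with a transcript cannot be told apart.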

How the data were processed

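Expression was measured on 15 Affymetrix arrays in 8 groups taken from the sample titles. The authors generated raw data with GCOS and used RMA from the Bioconductor module affy, per the labels' protocols. The range of the deposited values fits log2 units. For tool versions and probe-set definitions, nothing was given in the labels or headers. The arrays have similar but not identical distributions after RMA, with medians of 3.69 to 3.75, and this normalization hides any shift in total RNA. The number of arrays limits the precision.

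Of 45101 probe sets, 34945 had 1 gene symbol, 932 several and 9160 none, and 64 control probe sets were left out. Each of 18193 genes was read from its probe set with the highest mean. Groups were compared with limma 3.58.1 in R 4.3.3 (lmFit and eBayes over all 15 arrays, 1 coefficient per group, 7 residual and 5.65 prior degrees of freedom), with two-sided p-values, Benjamini-Hochberg adjustment over all genes within each of 12 comparisons, a threshold of 0.05, and 95% intervals not adjusted for the number of tests. A lone array was assumed to vary like the other groups. For other probe sets of a gene, p-values were adjusted over all probe sets with 1 symbol. The steps were tested on simulated data.

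Every member past the threshold somewhere was described on each array, with Ctnnb1, Axin2, Lef1, Tcf7l2, Lrp5 and Lrp6 whatever their result. From each list of other pathway genes the genes named were up to 4 per comparison past the threshold with the largest change, and Myc in Runx3 cells was added after its value was seen. Members and lists were chosen with earlier results of these data known. Alternatives were the mean over probe sets, genes with a mean above 5, a trended and robust fit, a replicate block, the groups compared alone, the 4-OHT vector control, and leaving out each array.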

Additional observations from a re-analysis of the deposited data

Results flagged for a closer look

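The differences below are between groups under the same contrast, each tested with limma as a difference of its own. The effect of 4-OHT on Tcf7l1 was larger in RUNX1-ER cells than in vector cells by 1.10 log2 units. Against vector cells the Runx2 and Runx1 lines moved Tcf7l1 in opposite directions, and the 2 lines differed by 1.15. Runx3 and Runx1 cells differed by 0.81 for Tcf7l1, 1.35 for Fzd7, 0.86 for Fzd5 and −0.68 for Wnt5a. Runx3 and Runx2 cells differed by 1.52 for Fzd7 and −0.34 for Tcf7l1.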

How the results depend on the processing

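Of 247 alternative values for the 28 changes of members past the threshold, 175 kept their direction and stayed past it, 72 kept the direction and missed it, and 0 reversed. The 9 never lost were Tcf7l1 in Runx2 cells, on induction, on induction beyond 4-OHT, and in Runx2 and Runx3 against Runx1 cells, Fzd7 in its 3 Runx3 comparisons, and Lef1 in the human RUNX1 line. With only the groups compared in the fit, the number of members past the threshold was 0 for Runx1 against vector, 4 for Runx3 against vector, 1 for induced RUNX1-ER against vector with 4-OHT and 1 for Runx3 against Runx2, a fit with fewer arrays behind its spread, and it was not run for the human RUNX1 line or the induction beyond 4-OHT. With the mean over probe sets it was 2 for the human RUNX1 line, 2 for induction and 1 for uninduced RUNX1-ER against vector. Among genes with a mean above 5 these counts were 3, 3 and 1, where fewer genes were tested, and with the trended and robust fit induction had 3 and uninduced RUNX1-ER 1. The cause of the other shifts was not tested. Leaving out 1 array gave 2 to 6 for Runx3, 1 to 1 for Runx2 and 0 to 1 for Runx1 against vector, 3 to 3 for human RUNX1, 1 to 2 for induction, 2 to 4 for induced RUNX1-ER against vector with 4-OHT, 1 to 2 for Runx3 against Runx2 and 2 to 4 for Runx3 against Runx1. Replicate numbers were not treated as pairs in the main fit. Of 21 pairs of groups, 5 had a correlation of replicate deviations over 0.1 (range −0.158 to 0.254 over 8048 genes). These values cannot settle whether arrays with the same number were prepared together, and the titles do not say. With the replicate block 7 members passed for Runx3, 4 for human RUNX1 and 4 for induced RUNX1-ER against vector with 4-OHT.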
